A study of Danio rerio with 4 samples.

Results

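Ventral epidermal ectoderm cells are the cells on the ventral side of the early gastrula that have begun to express the transcription factors of the future epidermis. In whole zebrafish embryos dissociated at the shield stage, the onset of gastrulation, they were chosen by a rule on detected genes. A cell was kept when it held at least 3000 UMIs (unique molecular identifiers, each standing for 1 captured mRNA) and when at least 4 of 7 ventral ectoderm genes (*dlx3b*, *tfap2c*, *foxi1*, *gata2a*, *msx1b*, *tfap2a* and *klf2b*) had a value above 0.5. The rule also asked that *krt92* (enveloping layer, EVL), *sox32* (endoderm), *ta* (mesoderm), *her3* and *foxb1a* (neural ectoderm) each lie at or below 0.5. It selected 648 of 14455 cells, or 4.48%. Of 3032 cells with enough UMIs and at least 4 of the 7 genes, the excluded genes removed 2384 (78.6%). These genes were widely detected, with *ta* above 0.5 in 57.7 to 65.8% of the cells of a library with at least 3000 UMIs. The selected cells are thus the smaller part of the cells with the ventral genes.

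The cells came from 4 single-cell libraries, 2 of M*rbm24a* embryos and 2 of siblings, which the genotype label calls wild type. M*rbm24a* embryos lacked the maternal product of *rbm24a*, which encodes an RNA-binding protein. They were the offspring of founder females carrying Cas9 under the oocyte promoter of *zpc* and guide RNAs against *rbm24a* on a transgene with a maternal BFP marker, in a line whose *rbm24a* gene was tagged with RFP, and BFP-positive embryos without RFP were taken. Nothing says that the libraries of a genotype came from separate clutches, so that each p-value measures the spread between these libraries, which may be technical. The libraries held 3402 and 3952 cells of M*rbm24a* embryos (M*rbm24a* 1 and 2) and 3534 and 3567 cells of siblings (sibling 1 and 2). In all, 16 barcodes occurred in more than 1 library, and 2 of the selected cells carried such a barcode.

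In the zebrafish gastrula, bone morphogenetic proteins (BMPs) form a ventral to dorsal gradient. Ligands bind type I and type II receptors, which phosphorylate Smad proteins, and on the dorsal side the secreted antagonists Chordin and Noggin hold the ligands back. Ectoderm under high BMP signalling takes an epidermal fate, and ectoderm protected from it takes a neural fate. The EVL, a flat epithelium that covers the embryo from outside, expresses many of the same transcription factors as the epidermis below it.

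The selected cells numbered 81 and 193 in M*rbm24a* 1 and 2, against 219 and 155 in sibling 1 and 2. They held 1.35e+06, 2.62e+06, 3.61e+06 and 2.47e+06 UMIs in the same order of libraries, so that M*rbm24a* 1 gave the least precise levels. Their median depth was 16784 and 13083 UMIs per cell in the M*rbm24a* libraries and 16249 and 16122 UMIs in the sibling libraries. Levels are given below as CPM, the UMIs of a gene per 1e+06 UMIs summed over the cells of a set in 1 library, always in the order M*rbm24a* 1, M*rbm24a* 2, sibling 1, sibling 2.

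The 7 defining genes were higher in the selected cells because the rule chose them so, and their levels are a description. *tfap2a* and *tfap2c*, AP-2 factors of surface ectoderm, had 145, 142, 211 and 213 CPM and 376, 364, 410 and 449 CPM. *foxi1* and *gata2a*, further factors of the non-neural ectoderm, had 53.2, 60.6, 82.2 and 110 CPM and 115, 126, 195 and 205 CPM. *dlx3b*, a homeobox gene of the epidermis and the neural border, had 139, 133, 131 and 172 CPM. *klf2b* had 66.0, 54.7, 71.0 and 87.1 CPM and *msx1b* 57.8, 86.4, 138 and 159 CPM.

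Markers outside the rule describe how far these cells had gone. *tp63_1*, an entry of *tp63*, the master gene of the basal epidermis, had 9.57, 3.84, 2.83 and 7.10 CPM in the selected cells, against 1.12, 1.04, 0.989 and 1.1 CPM in all remaining cells. It was detected in 8, 11, 10 and 12 selected cells, that is in 9.88, 5.70, 4.57 and 7.74% of them. In the neural ectoderm cells defined below, at similar depth, the share was 1.43, 1.44, 0.787 and 1.43%, so that detection lay above that background in each library while most selected cells had no *tp63_1* UMI. In the *ta*-positive ventral cells, also defined below, the share was nearer, at 7.41, 3.67, 3.73 and 4.04%. The other entry, *tp63*, was above 0.5 in 3.70, 4.66, 2.28 and 3.23% of the selected cells. *gata3* had 6.91, 4.78, 10.2 and 7.45 CPM, below the 14.4, 13.4, 18.5 and 17.0 CPM of the remaining cells, whose EVL cells held a mean of 297 CPM. *klf17*, a gene of the superficial epithelium, was likewise far lower than in EVL cells. It had 13, 10.1, 11.6 and 18.8 CPM in the selected cells, against a mean of 502 CPM in EVL cells. *foxi3b*, *epcam* and *bmp2b* were listed at 0 in every library and set of cells, but so were the cell cycle genes *cdk1* and *plk1*, so that such a 0 says nothing of expression. The label ventral epidermal ectoderm thus rests on the early factors of the rule, with *tp63* near its detection limit. Of the 41 entries that match the 31 symbols of a list of other ventral ectoderm factors, 12 were listed at 0 in the selected cells. Only 3 entries had a mean of at least 20 CPM in the selected or the remaining cells. Against the remaining cells, none of these was 2-fold higher in each library and 1 was 2-fold lower, with a median log2 ratio of −1.06. The summed list was lower in the selected than in the remaining cells of each library, and higher than in the neural cells. Outside the rule, this list thus did not set the selected cells above the remaining cells.

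EVL and mesoderm genes were low in the selected cells against the remaining cells, which the rule's excluded genes bring about. The summed mesoderm list was at 465, 504, 532 and 541 CPM, against 1883, 1751, 2029 and 2237 CPM in the remaining cells. It was lower in the neural cells than in the selected cells of each library, at 352, 335, 311 and 321 CPM. The summed EVL list was at 26.4, 18.9, 114 and 39.1 CPM, against 1809, 1948, 2968 and 3212 CPM in the remaining cells and 28.1, 31.5, 99.4 and 45.7 CPM in the neural cells. The EVL genes *lye* and *cldne* were at 2.31, near 0, 56.8 and 4.93 CPM and at 0.414, near 0, 7.40 and near 0 CPM. Germ plasm genes stood out in sibling 1 alone, where the summed list had 1329 CPM against 273, 270 and 217 CPM in M*rbm24a* 1, M*rbm24a* 2 and sibling 2. In that library 3 selected cells held at least 3 of the germ cell genes *nanos3*, *dnd1*, *ca15b* and *tdrd7a*, and the tests were repeated without them.

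The share of selected cells did not differ between genotypes beyond the spread of the libraries. It was 2.38% (95% exact binomial interval 1.90 to 2.95) and 4.88% (4.23 to 5.60) in M*rbm24a* 1 and 2, and 6.20% (5.42 to 7.04) and 4.35% (3.70 to 5.07) in sibling 1 and 2. The mean was 3.63 ± 1.77% in M*rbm24a* embryos and 5.27 ± 1.31% in siblings (SD, n = 2 each), a difference of −1.64 percentage points (exact two-sided permutation test, p = 0.667, where 2 against 2 cannot go below 0.333). M*rbm24a* 2 lay above sibling 2, so that the groups overlapped, and the difference shrank to −0.39 points without M*rbm24a* 1 and to −0.71 points without sibling 1, and widened to −2.89 points without M*rbm24a* 2 and −2.56 points without sibling 2.

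**Figure D1:**
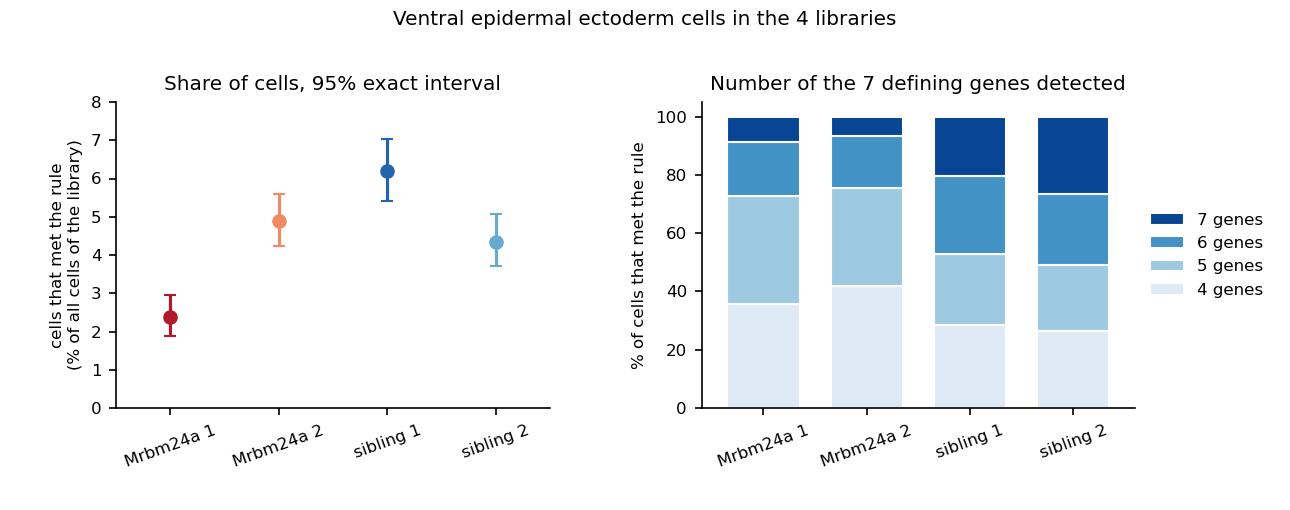
Left, cells that met the rule as a share of all cells of each library (%, points with 95% exact binomial intervals). Right, the selected cells of each library split by how many of the 7 defining genes they held (% of selected cells); cells with 6 or 7 genes made up 27.2 and 24.4% in the M*rbm24a* libraries and 47.0 and 51.0% in the sibling libraries.

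Depth bears on this share because a shallow cell holds fewer genes above 0.5, both of the defining and of the excluded genes. Among cells with at least 3000 UMIs the share was 3.18 and 6.19% in M*rbm24a* libraries, against 6.61 and 6.58% in sibling libraries. With cells of at least 8000 UMIs thinned to that depth it was 4.1 and 5.20%, against 7.42 and 7.17%. With cells of at least 3000 UMIs thinned to 3000 it was 0.615 and 1.24%, against 2.46 and 3.55%. Shallower cells were left out of both. In M*rbm24a* 1 and 2 and sibling 1 and 2 these numbered 1547, 1413, 624 and 1628 at 8000 UMIs. At 3000 UMIs they numbered 802, 804, 205 and 1198. After thinning, *ta* was detected in 51.1, 46.1, 47.9 and 48.5% of the cells left at 8000 UMIs. At 3000 UMIs it was detected in 34.6, 29.4, 31.5 and 35.4%. The thinned shares can thus hold cells that the rule left out at full depth. The groups did not overlap in these 3 settings, each at the smallest p that 2 against 2 allows (0.333, exact permutation test). *sox32*, one of the excluded genes, was above 0.5 in 48.9 and 30.7% of M*rbm24a* cells with at least 3000 UMIs and in 27.2 and 24.0% of sibling cells. Of M*rbm24a* cells with 4 or more of the defining genes, 62.2 and 46.2% held it, against 33.7 and 29.8% of such sibling cells. Most of these cells also held another excluded gene. By itself *sox32* removed 29 of 588 and 26 of 808 such M*rbm24a* cells, and 24 of 1016 and 30 of 620 such sibling cells. With *sox32* left out of the rule, 757 cells met it, at 3.23 and 5.54% in M*rbm24a* libraries and 6.88 and 5.19% in sibling libraries. The difference was again −1.64 points. This setting returns only the cells that *sox32* removed by itself, so that it cannot measure the part of *sox32* in the share. With all 5 excluded genes left out, the share was 17.3 and 20.4% in M*rbm24a* libraries, against 28.7 and 17.4% in sibling libraries. That difference was −4.20 points.

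The number of defining genes in the selected cells was also lower in the M*rbm24a* libraries. The mean number per selected cell was 5 and 4.89 in M*rbm24a* libraries, against 5.39 and 5.51 in sibling libraries, which is a description, since this number chose the cells. The groups did not overlap. Nor did they among selected cells with at least 8000 UMIs thinned to that depth, at 3.74 and 3.8 genes against 4.26 and 4.45 genes. The rule fixes a minimum of 4 genes in the unthinned cells but did not use the genotype.

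Few genes outside the rule stood above all remaining cells. The ratio of the selected to the remaining cells of the same library was taken on log2(CPM + 5), and a gene counted as higher when it was at least 2-fold up in each of the 4 libraries. Since the cells were chosen on this contrast, no test was made. Of 4968 genes with at least 20 CPM, 5 were higher (0.101%) and 177 lower (3.56%). The 5 are the DNA methyltransferase gene *dnmt3bb.1*, the microtubule-associated *map1aa*, the LIM protein gene *csrp2*, *kazald2*, which encodes a secreted protein with a Kazal domain, and *plekha5*, which encodes a protein with a pleckstrin homology domain.

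*dnmt3bb.1* had 125, 129, 103 and 110 CPM in the selected cells, against 43.7, 44.8, 42.7 and 39.2 CPM in the remaining cells, a mean log2 ratio of 1.35. *csrp2* had 27.1, 27.4, 33.5 and 43.0 CPM in the selected cells, against 9.38, 7.43, 10.1 and 13 CPM in the remaining cells, a ratio of 1.33. *map1aa* had 26.8, 25.2, 30.1 and 36.1 CPM in the selected cells, against 6.98, 7.05, 8.65 and 12.5 CPM in the remaining cells, also 1.33. The lowest selected value of each of these genes lay above the highest remaining value. *kazald2* had 262, 257, 259 and 340 CPM in the selected cells, against 105, 114, 114 and 142 CPM in the remaining cells (1.2), and *plekha5* had 74.8, 70.7, 67.9 and 69.1 CPM in the selected cells, against 29.8, 29.9, 27.6 and 27.8 CPM in the remaining cells (1.16). *crabp2b*, which encodes a retinoic acid binding protein, reached the fold in the M*rbm24a* libraries and just missed it in both sibling libraries, with 882, 853, 781 and 808 CPM in the selected cells, against 363, 378, 391 and 413 CPM in the remaining cells (1.1).

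The 177 lower genes included many known from the cells that the rule left out. The 10 with the lowest ratios, *cldne*, *krt4_1*, *cyt1*, *krt8_1*, *lye*, *mid1ip1a*, *krt97*, *zgc:153665*, *si:ch211-217k17.9* and *si:ch211-125o16.4_1*, had mean log2 ratios of −5.88 to −4.54. Most of them are keratin, claudin and other genes known from the EVL, whose cells were removed through *krt92*. Of the listed genes, 12 of 13 EVL, 15 of 16 mesoderm and 4 of 5 endoderm genes were lower, with median log2 ratios of −4.78, −2.48 and −2.47 against 0.05 over all genes. The T-box gene *tbx16*, for example, had 259, 274, 265 and 267 CPM in the selected cells, against 617, 576, 601 and 671 CPM in the remaining cells (−1.19). For these lists the direction follows from the rule. With EVL cells left out of the remaining cells, 107 genes were lower.

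A narrower setting is the neural ectoderm of the same embryos. It was represented by 70, 139, 254 and 210 cells, 673 in all, with at least 3000 UMIs, with *her3* and *foxb1a* above 0.5, without *krt92*, *sox32* or *ta*, and with fewer than 4 of the defining genes. Their median depth was 16348, 14569, 16819 and 16584 UMIs per cell, close to that of the selected cells. Both sets were chosen with the same 12 genes, which were left out of the counts, and the contrast is again a description. Of 4853 genes, 34 were higher in the selected cells in every library (0.701%) and 22 were lower (0.453%).

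**Figure D2:**
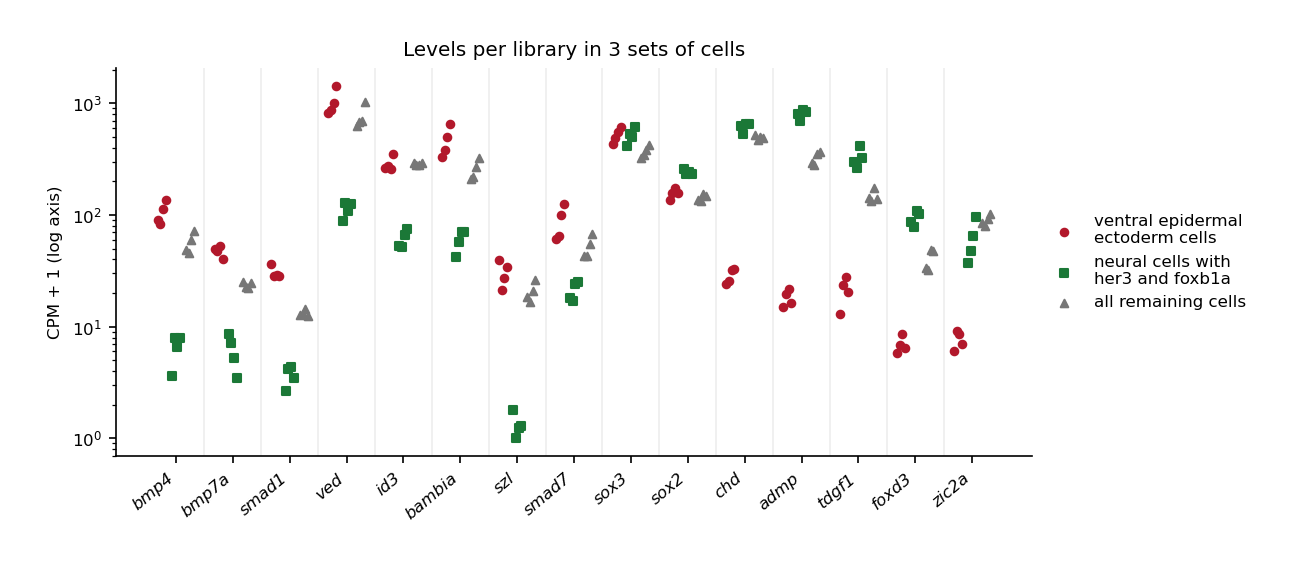
CPM + 1 (log axis) of 15 genes in each library, with ventral epidermal ectoderm cells as circles, *her3* and *foxb1a* neural cells as squares and all remaining cells as triangles. *bmp4* lay between 82.2 and 135 CPM in ventral and between 2.62 and 6.95 CPM in neural cells, *sox3* did not separate these sets, and *chd* lay between 22.9 and 32.1 CPM in ventral and between 527 and 650 CPM in neural cells.

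BMP ligands set the selected cells apart from the neural cells. *bmp4* had 88.6, 82.2, 111 and 135 CPM in the selected cells, against 2.62, 6.95, 5.55 and 6.86 CPM in neural cells and 47.2, 44.7, 58.2 and 71.2 CPM in all remaining cells. It was above 0.5 in 56.8, 55.4, 72.6 and 74.8% of the selected cells and in 4.29, 7.91, 8.66 and 9.05% of the neural cells. *bmp4* thus had the largest mean ratio to the neural cells among the 34 higher genes (3.38 on the log2 scale) and a ratio of 0.85 to the remaining cells, in which other ventral cells are included. *bmp7a*, whose product pairs with the Bmp2b ligand, had 48.7, 46.2, 51.3 and 39.1 CPM in the selected cells, against 7.52, 6.08, 4.28 and 2.44 CPM in neural cells (2.37). *bmp1a*, which encodes a protease that cleaves Chordin, had 51.2, 48.9, 50.4 and 54.7 CPM in the selected cells, against 14.2, 18, 16.9 and 21.0 CPM in neural cells (1.33). The ligand gene *admp*, which is known from the dorsal side, ran the other way, with 14.0, 18.7, 20.9 and 15.4 CPM in the selected cells, against 807, 697, 879 and 831 CPM in neural cells (−5.19). Of 5 ligand and processing genes, 3 were higher, 1 was lower and *gdf3* had a log2 ratio of −0.02, with a median log2 ratio of 1.33 against 0.00 over all genes.

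The intracellular Smads differed by gene. *smad1* had 35.4, 27.5, 27.9 and 27.2 CPM in the selected cells, against 1.67, 3.18, 3.39 and 2.51 CPM in neural cells (2.16). *smad5*, which carries the early BMP signal, had 280, 288, 284 and 286 CPM in the selected cells and a log2 ratio of 0.54 to neural cells. The receptor genes *acvr1l* and *bmpr1ab* had ratios of 0.06 and 0.55. Of 4 receptor and Smad genes, *smad1* alone was 2-fold higher in every library.

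Antagonists fell into opposite sets. Those known to be switched on by BMP signalling itself were higher in the selected cells. *bambia*, a pseudoreceptor, had 330, 382, 497 and 652 CPM in the selected cells, against 41.3, 55.8, 69.9 and 69.8 CPM in neural cells (2.85). *smad7*, an inhibitory Smad, had 59.6, 63.4, 99 and 125 CPM in the selected cells, against 16.9, 15.9, 23.2 and 24.2 CPM in neural cells (1.83), and *szl*, a secreted inhibitor of Chordin cleavage, had 38.5, 20.2, 26.2 and 33.0 CPM in the selected cells, against 0.788, 0, 0.230 and 0.284 CPM in neural cells (2.67). No neural library reached the lowest selected value of these genes. The dorsal antagonist genes *chd* and *nog1* were low in the selected cells, with 22.9, 24.9, 31.2 and 32.1 CPM and with 4.61, 5.91, 5.32 and 16.2 CPM, against 525, 469, 499 and 486 CPM and 122, 102, 102 and 133 CPM in the remaining cells (−3.94 and −3.27). In neural cells *chd* had 621, 527, 646 and 650 CPM. Of 7 antagonist genes tested against neural cells, 3 were higher and 1 was lower. *nog1* was not among these 7, since its mean lay under 20 CPM in both sets.

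Genes that respond to BMP were also higher than in neural cells, while several were level with or below the remaining cells. *ved*, which encodes a ventral repressor of dorsal genes, had 812, 868, 997 and 1428 CPM in the selected cells, against 86.9, 127, 107 and 123 CPM in neural cells (3.13). *id3*, an inhibitor of bHLH factors, had 262, 276, 259 and 354 CPM in the selected cells, against 51.5, 51.0, 65.8 and 74.2 CPM in neural cells (2.16), while in all remaining cells it had 292, 277, 282 and 293 CPM, a ratio of 0.00. *eve1* was higher than in neural cells (2.36) and lower than in the remaining cells (−0.89), with 51.8, 47.4, 73.6 and 96.1 CPM. *vox*, a partner of *ved*, did not separate the sets, with 203, 255, 379 and 492 CPM against 195, 216, 341 and 416 CPM in neural cells (0.17). Of 7 BMP-responsive genes, 3 were higher than in neural cells and none lower, with a median log2 ratio of 1.43.

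Neural genes did not fall into a single class. The B1 Sox gene *sox3* had 433, 493, 553 and 610 CPM in the selected cells, against 418, 533, 503 and 615 CPM in neural cells (0.02), and *sox19a_1* had 500, 522, 538 and 464 CPM in the selected cells, against 515, 546, 584 and 503 CPM in neural cells (−0.09). Both genes were thus at the level of the neural cells in cells chosen for epidermal factors, but they were widely detected. *sox3* was above 0.5 in 89.1, 82.7, 83.2 and 67.8% of EVL cells, and *sox19a_1* in 100, 95.1, 94.1 and 71.1%. *sox2* was somewhat lower, with 136, 158, 173 and 156 CPM in the selected cells, against 255, 234, 243 and 232 CPM in neural cells (−0.62). Factors that pattern the neural plate and the dorsal side were far lower. *foxd3* had 4.82, 5.88, 7.58 and 5.39 CPM in the selected cells, against 86.4, 76.9, 107 and 101 CPM in neural cells (−3.16), and *zic2a* had 5.07, 8.18, 7.68 and 5.97 CPM in the selected cells, against 36.0, 46.9, 64.2 and 95.2 CPM in neural cells (−2.41). *otx1b*, a gene of the anterior neural plate, had 58.9, 31.7, 24.5 and 25.4 CPM in the selected cells, against 179, 149, 197 and 178 CPM in neural cells (−2.24). Of 15 neural genes 5 were lower in every library by the count rule. The Nodal co-receptor gene *tdgf1* was lower as well, with 12.1, 22.4, 26.8 and 19.5 CPM in the selected cells, against 300, 265, 418 and 325 CPM in neural cells (−3.74).

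**Figure D3:**
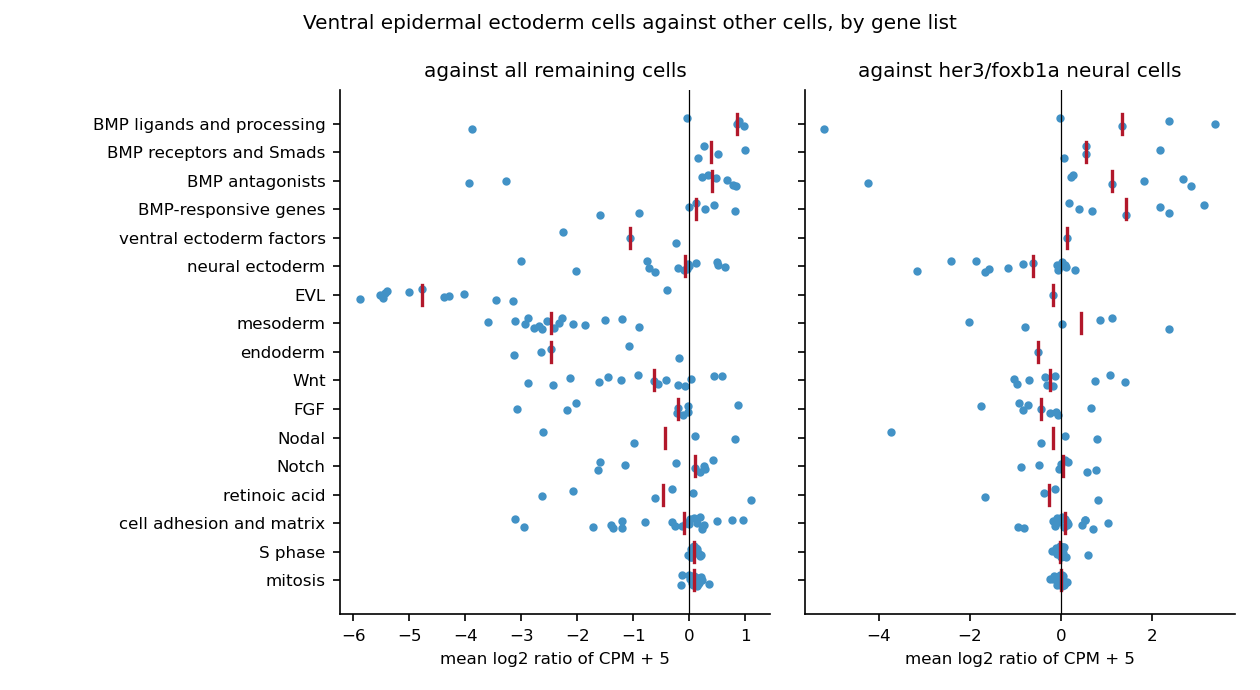
Each point is 1 gene, placed at the mean over 4 libraries of the log2 ratio of CPM + 5 in ventral epidermal ectoderm cells to all remaining cells (left) or to neural cells (right), by gene list, with the median of the list as a bar. Against neural cells the medians of BMP ligands, BMP antagonists and BMP-responsive genes were 1.33, 1.11 and 1.43, and S phase and mitosis genes lay near 0.

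Other genes that were higher than in neural cells had no common list. *apoc1*, which encodes an apolipoprotein, had 2453, 2059, 2171 and 1569 CPM in the selected cells, against 431, 444, 505 and 332 CPM in neural cells (2.25). *dnmt3bb.1* and *csrp2* had log2 ratios of 2.69 and 2.06, *lima1a*, which encodes an actin-binding LIM protein, 2.19, *prickle1b*, a planar polarity gene, 1.69 and *wwtr1*, which encodes the Hippo pathway effector Taz, 1.31. The retinoic acid degrading enzyme gene *cyp26a1* and the FGF antagonist gene *il17rd* were lower, at −1.66 and −1.75. None of 10 Wnt, 8 Notch, 17 adhesion and matrix, 18 S phase and 21 mitosis genes passed in either direction. With 0.701% of all genes higher and 0.453% lower, lists of this size would seldom hold a call. *cdh1*, which encodes E-cadherin, had 332, 305, 253 and 268 CPM in the selected cells, against 252, 263, 230 and 236 CPM in the remaining cells (0.23).

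Cells that met the rule in all but *ta* were the nearest neighbours on the ventral side, 54, 109, 161 and 99 cells in the 4 libraries. Of 4862 genes none was higher in the selected cells (0%) and 31 were lower (0.638%). Some of the lower genes are known from the ventral and posterior margin, but *admp*, *zic2a*, *nav1a* and *rbm38* were among them too. *msgn1*, a presomitic mesoderm gene, had 14.5, 25, 22.6 and 19.5 CPM in the selected cells, against 156, 123, 151 and 105 CPM in *ta*-positive cells (−2.45), and *cdx1a* had 10.8, 20.2, 11.8 and 13.1 CPM in the selected cells, against 102, 79.2, 124 and 144 CPM in *ta*-positive cells (−2.62). *cdx4*, *eve1*, *tbx6l* and *her1* had ratios of −2.11, −1.98, −2.25 and −1.92. Against EVL cells, 372 of 5810 genes were higher (6.4%) and 809 lower (13.9%). *bmp4* was above 0.5 in 10.9, 27.2, 7.92 and 17.8% of these EVL cells, and in 75.9, 78.9, 87 and 91.9% of the *ta*-positive cells, a larger share than in the selected cells of each library. A high level of the BMP genes was thus shared with these ventral neighbours. *bmp4*, *ved*, *szl*, *bambia* and *smad7* had mean log2 ratios of −0.57, −0.66, −0.79, −0.30 and −0.19 to the *ta*-positive cells. *dnmt3bb.1* was above 0.5 in 70.4, 70.6, 64.0 and 68.7% of the *ta*-positive cells, against 69.1, 72.5, 64.4 and 69.0% of the selected cells. For *map1aa* and *csrp2* the shares of the 2 sets overlapped. *kazald2* was above 0.5 in 63.0, 64.2, 52.8 and 54.5% of the *ta*-positive cells, against 87.7, 86.5, 85.4 and 89.0%.

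Within the selected cells, the levels of some genes followed the number of defining genes. This is a description, since the rule used that number. The rule's threshold lies between 3 and 4 genes. The cells just outside it, with exactly 3 genes and everything else met, numbered 209, and 213, 184, 145 and 106 cells held 4, 5, 6 and 7 genes. Cells with more of the genes were also deeper in each library, with a median of 23559, 14181, 18574 and 17201 UMIs at 7 genes against 15185, 12698, 13878 and 13418 UMIs at 4 genes, and the part of depth in these gradients was not tested. Levels in CPM are scaled to the total of each set.

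The mean level of *bmp4* over the 4 libraries was 54.3, 67.9, 96.7, 122 and 144 CPM at 3, 4, 5, 6 and 7 defining genes. *bambia* went with it, at 238, 346, 434, 485 and 703 CPM, as did *ved*, at 645, 780, 1062, 1129 and 1277 CPM, and *smad7*, at 41.4, 60.8, 74.7, 97.5 and 134 CPM. These genes thus had their highest mean in the cells with the complete set of defining genes. *id3* and *smad1* did not, with 225, 305, 315, 285 and 260 CPM and with 21.7, 30.7, 28.6, 28.2 and 29.3 CPM. *tp63_1* had means of 1.31, 0.810, 2.91, 12.6 and 11.9 CPM, and *gata3* of 2.64, 3.90, 5.21, 7.63 and 15.5 CPM, although both rest on few UMIs. *chd* and *admp* had 103 and 64.1 CPM just outside the rule, 46.5 and 22.7 CPM at 4 genes and 22.0 and 9.94 CPM at 7 genes. *sox3* showed no such gradient, with 494, 518, 551, 520 and 550 CPM.

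**Figure D4:**
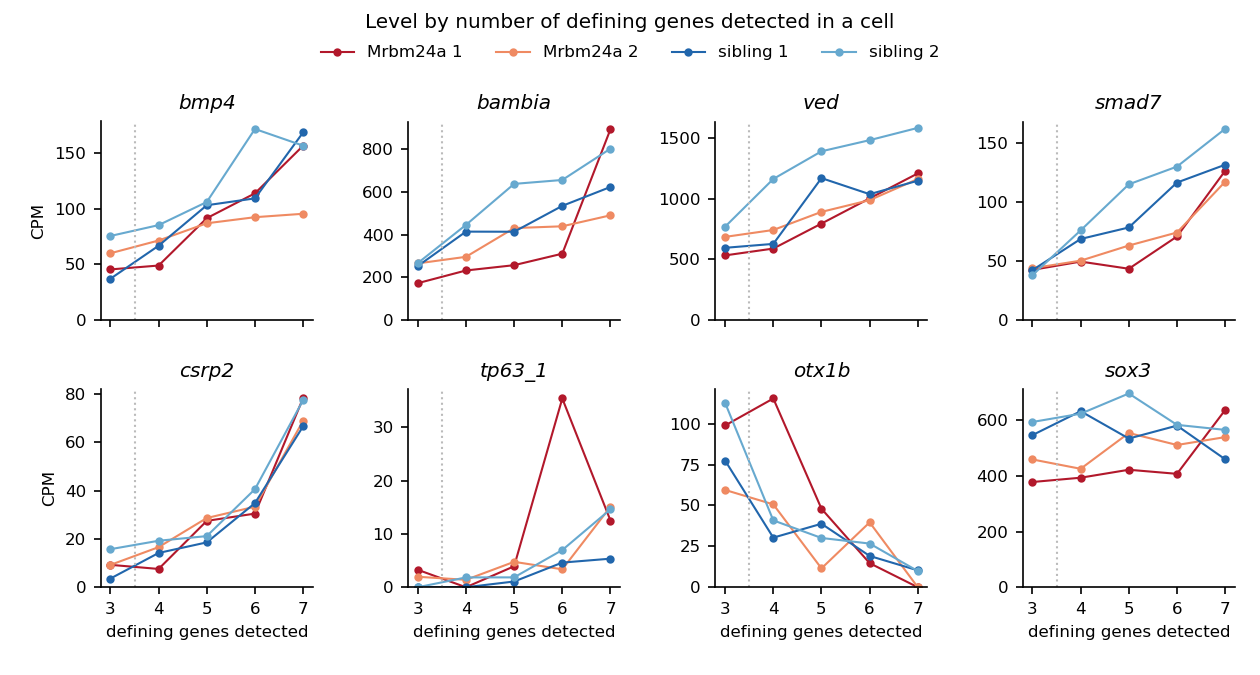
CPM of 8 genes in each library by the number of defining genes detected in a cell; the dotted line marks the rule's threshold between 3 and 4 genes. *csrp2* lay between 66.7 and 78.4 CPM at 7 genes and between 7.58 and 19.3 CPM at 4 genes, while *otx1b* lay between 0 and 10.3 CPM at 7 genes and between 30.3 and 115 CPM at 4 genes.

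In all, 4 genes outside the rule differed at least 2-fold in each library between cells with 7 and cells with 4 defining genes, out of 5004 genes, 3 higher (0.06%) and 1 lower (0.02%). *csrp2* had 78.4, 69.0, 66.7 and 77.6 CPM at 7 genes, against 7.58, 16.6, 14.2 and 19.3 CPM at 4 genes, a mean log2 ratio of 2.04. *tagln2*, which encodes an actin-binding transgelin, had 77.8, 41.6, 72.1 and 40.9 CPM at 7 genes (1.76), and *mdm2_1*, an entry of the p53 regulator gene *mdm2*, had a ratio of 1.65. *tagln2_1*, another entry of the symbol *tagln2*, did not rise, with means of 38.2, 24.4, 34.8 and 19.8 CPM at 4, 5, 6 and 7 genes. *otx1b* was the lower gene, with 0, 0, 10.3 and 9.89 CPM at 7 genes against 115, 50.7, 30.3 and 40.9 CPM at 4 genes (−2.72). The 7-gene set held 7, 13, 45 and 41 cells in the 4 libraries, so that the M*rbm24a* values rest on few cells. *csrp2* was also the single gene higher than in the cells just outside the rule (1 of 4827, 0.0207%, with none lower, 0%).

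The rule did not use the genotype, and differences between genotypes within the selected cells were tested with edgeR on sums per library. The test is not wholly separate from the rule. The selected cells of the genotypes differed in the number of defining genes, and *sox32* was found in a larger share of M*rbm24a* cells, as given above. The paper states that M*rbm24a* and sibling cells were isolated, barcoded and sequenced separately. Genotype and handling therefore cannot be told apart. For some somatic clusters the paper also proposes that differences may come from slightly unequal stages of siblings and mutants. Stage was not tested here. *rbm24a* itself was near the detection limit, at 1.27, 0.752, 0.960 and 1.06 CPM in the selected cells, and since 3′ tags are counted, this level does not check the genotype. Its paralog *rbm24b* was at 0, 0.295, 0 and 0 CPM. Of 9005 genes tested, 3 were higher in M*rbm24a* cells (0.0333%) and 13 lower (0.144%) at an adjusted p under 0.05, and 799 had an unadjusted p under 0.05. The calls themselves were unstable, since the gene called without M*rbm24a* 2 was not among them. The count was unstable as well. It was 5 without M*rbm24a* 1, 1 without M*rbm24a* 2, 916 without sibling 1, 144 without sibling 2 and 9 without the 3 cells that held germ cell genes, and DESeq2 called 8 genes. The 7 genes lost without those 3 cells, *vox*, *otx1a*, *LOC570115*, *mt-rnr2*, *LOC110439372*, *gata2a* and *msx1b*, kept nearly the same fold change and lay just over the threshold. All values below are log2 fold changes of M*rbm24a* over sibling with their standard error and the Benjamini-Hochberg adjusted p of edgeR.

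Members of the Notch and BMP pathways were among the lower genes. *her15.1*, a Hairy/E(spl) target of Notch, had 341 and 394 CPM in M*rbm24a* cells, against 694 and 782 CPM in sibling cells, and fell by 0.98 ± 0.12 (edgeR adjusted p = 0.0100). *her4.2*, a gene of the same family, had 49.8 and 62.0 CPM in M*rbm24a* cells, against 108 and 124 CPM in sibling cells, and fell by 1.01 ± 0.14 (edgeR adjusted p = 0.0208). Over all alternatives the fold change of *her15.1* lay between −1.08 and −0.88 and that of *her4.2* between −1.19 and −0.89. Both genes were lower in the remaining cells as well, by −0.92 and −1.17. *vox* had 203 and 255 CPM in M*rbm24a* cells, against 379 and 492 CPM in sibling cells, and fell by 0.89 ± 0.14 (edgeR adjusted p = 0.0400), with −0.61 in the remaining cells. Without the germ-marked cells of sibling 1 the fold change of *vox* was −0.88, just short of the threshold. Over all alternatives that of *vox* lay between −1.07 and −0.71. Of 10 Notch genes tested, 2 fell and 7 had a negative fold change, with a median of −0.16, and of 9 BMP-responsive genes 1 fell and all 9 were negative, with a median of −0.50. Over all 9005 genes 4497 were negative and the median was 0.00. *smad7* missed the threshold (−0.83, edgeR adjusted p = 0.0525), as did *her7* (−0.94, edgeR adjusted p = 0.0573).

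The order of the libraries was also counted. Of 7 BMP-responsive genes with at least 20 CPM, 6 had both M*rbm24a* libraries below both sibling libraries and none above, where 22.6% of 4697 genes lay below and 21.3% above. Of 8 Notch genes 5 lay below and 2 above, of 7 BMP antagonists 3 lay below and none above, and of 8 genes of a list for apoptosis and stress 5 lay below and none above. Of 4 BMP ligand genes and 4 receptor and Smad genes 1 and 0 lay below. Lower values in M*rbm24a* libraries were not limited to the selected cells. In the remaining cells the summed BMP-responsive list had 4512 and 4718 CPM in M*rbm24a* against 5425 and 6250 CPM in sibling libraries. In neural cells it had 3576 and 3770 against 4520 and 4990 CPM. The summed Notch list had 1236 and 1283 against 1690 and 1856 CPM in the remaining cells. That of apoptosis and stress had 11510 and 12466 against 11486 and 11352 CPM there, with M*rbm24a* 1 close to sibling 1. In the selected cells this list summed to 8630, 8889, 8926 and 9139 CPM. Most of that was *hspb1*, with means of 7763 CPM in M*rbm24a* and 7740 CPM in sibling libraries. Its sum therefore cannot be set against the count by gene. Selected M*rbm24a* cells held fewer defining genes each, as given above. Of the BMP-responsive genes, *id1*, *ved* and *vox* had higher means in cells with more defining genes, while *id3* was highest at 5 genes. *id1* had 4288, 4959, 5688, 6177 and 6337 CPM at 3, 4, 5, 6 and 7 genes. It made up most of the summed list, with means of 5100 CPM in M*rbm24a* and 6391 CPM in sibling selected cells. The part of the number of defining genes in the genotype difference was not tested by cell. Among cells with at least 5 defining genes, 8 genes in all passed the test.

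**Figure D5:**
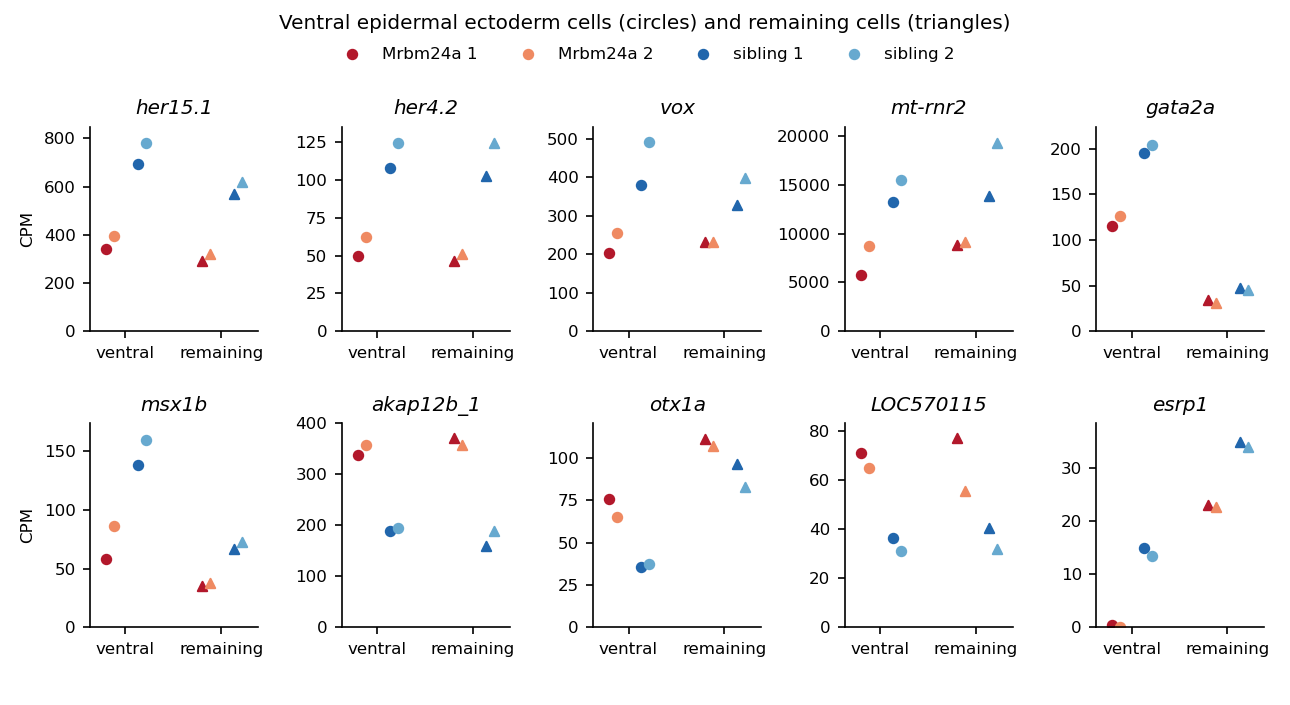
CPM of 10 genes in the 4 libraries, in ventral epidermal ectoderm cells (circles) and in all remaining cells (triangles). *her15.1*, *her4.2* and *vox* had both M*rbm24a* libraries below both siblings in either set of cells, whereas *otx1a* had 75.6 and 65.3 CPM against 35.7 and 37.2 CPM in ventral cells and 111 and 107 CPM against 96.2 and 82.6 CPM in remaining cells.

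Of the defining genes, *gata2a* and *msx1b* passed the test at log2 fold changes of −0.70 and −0.98, and are given as a description since they chose the cells. Of the genes outside the rule, 3 rose. *akap12b_1*, which encodes a scaffold protein of protein kinase A, had 337 and 357 CPM in M*rbm24a* cells, against 189 and 194 CPM in sibling cells (0.88 ± 0.11, edgeR adjusted p = 0.0100). *otx1a*, an anterior neural homeobox gene, had 75.6 and 65.3 CPM in M*rbm24a* cells, against 35.7 and 37.2 CPM in sibling cells (0.95 ± 0.15, edgeR adjusted p = 0.0387). Its fold change was 0.94 without the germ-marked cells, just short of the threshold, and 0.63 among cells with at least 5 defining genes, where it did not pass. *LOC570115*, which the sources used here do not describe, had 70.8 and 65.0 CPM in M*rbm24a* cells, against 36.4 and 31.1 CPM in sibling cells (1.00 ± 0.16, edgeR adjusted p = 0.0387). *otx1a* was one of the genes that were highest just outside the rule, at 94.7 CPM with 3 and 19.5 CPM with 7 defining genes.

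The other lower genes were mostly either undescribed entries or genes found in few cells. *LOC100534909* had 522 and 553 CPM in M*rbm24a* cells, against 945 and 1035 CPM in sibling cells (−0.86, edgeR adjusted p = 0.0100), and *si:dkey-67c22.2_1* had 9.40 and 3.32 CPM in M*rbm24a* cells, against 34.4 and 30.6 CPM in sibling cells (−2.51, edgeR adjusted p = 0.0153). *esrp1*, an epithelial splicing regulator, had 0.479 and near 0 CPM in M*rbm24a* cells, against 15.0 and 13.5 CPM in sibling cells, and *LOC110439627* had 5.14 and near 0 CPM in M*rbm24a* cells, against 371 and 123 CPM in sibling cells (both with edgeR adjusted p = 0.0100). The M*rbm24a* UMIs of *esrp1* were under 3 in all after the authors' subtraction of ambient RNA. Against a floor of 3 counts the gene was at least 19.1-fold higher in sibling cells. There were 46 and 21 positive cells there and 0 and 0 in M*rbm24a* cells. This bound covers counting error and not error in the subtraction, whose part was not tested. *esrp1* is a gene of the EVL in these data, at a mean of 753 CPM in EVL cells, and the summed EVL list was at 26.4 and 18.9 CPM in selected M*rbm24a* cells against 114 and 39.1 CPM in selected sibling cells. Its part in the *esrp1* difference was not tested. The mitochondrial ribosomal RNA *mt-rnr2*, often read as a sign of RNA quality, had 5730 and 8743 CPM in M*rbm24a* cells, against 13280 and 15499 CPM in sibling cells (−0.97, edgeR adjusted p = 0.0479), and its part in the other differences was not tested.

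Most of these genes passed the test in the remaining cells too. Of the 16 genes, 10 did so with the same sign, where 27 genes rose (0.153%) and 176 fell (0.997%) of 17649 tested. The difference between the genotype effects of the selected and of the remaining cells passed the edgeR interaction test for 13 of 16049 genes, 4 upward (0.0249%) and 9 downward (0.0561%), with 937 at an unadjusted p under 0.05. *her15.1*, *her4.2*, *vox* and *akap12b_1* were not among them. *otx1a* was, with a fold change of 0.95 in the selected cells and 0.32 in the remaining cells.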

How the data were processed

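The authors trimmed reads with Trimmomatic and obtained UMI counts from Cell Ranger. They then subtracted ambient RNA by DecontX, took out doublets by Scrublet and dropped barcodes with extreme totals. The deposited values are therefore estimated counts that carry decimals and keep the depth of each cell, and genes are named by gene symbol, with a suffix such as "_1" for repeated symbols. The submitters' processing notes name GRCz10, and the annotation is not given in the sources used here. Libraries were told apart by barcode prefix. They held 4.64e+07 and 5.93e+07 UMIs (M*rbm24a* 1 and 2) and 6.20e+07 and 4.02e+07 UMIs (sibling 1 and 2), and 32 cells shared 16 barcodes across libraries. The study names batches, but which library belongs to which batch is not given in the labels, so that batch was not tested. All 14455 cells were used, without a further doublet caller.

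The members, gene lists and tests were chosen with earlier results of these data known. Estimated counts were summed over the cells of each set and library with Python 3.11.15, numpy 2.4.6, pandas 2.3.3 and scipy 1.17.1, and rounded for tests in edgeR 4.0.16 under R 4.3.3. The quasi-likelihood test was used after filterByExpr and TMM scaling, p-values were adjusted by Benjamini-Hochberg over all genes tested, the threshold was 0.05, and the interaction model had the library as a block. CPM were computed from the unrounded sums. Ratios between sets of cells used log2(CPM + 5) per library and genes with a mean of at least 20 CPM in either set. The statistics were tested on simulated data. Exact Clopper-Pearson intervals (95%) and the floor of 3 counts cover counting error only. Named genes are the 12 genes of the rule, the 20 highest and 10 lowest genes by mean ratio to the remaining cells among those counted, members of the lists, the 5 genes with the smallest p in each direction between genotypes, and the *rbm24* family. Genes named in comparisons with neural, *ta*-positive and EVL cells, and in the split by defining genes, were picked after their values were seen. Alternatives were RLE factors, DESeq2 1.42.0, limma 3.58.1 on log2(CPM + 1), no filter, other pseudocounts, at least 3 or 5 defining genes, thinned cells, cells over the 95th percentile of depth left out, a replicate block, and each library left out. Leaving out germ-marked cells, EVL cells or the exclusion by *sox32* or by all 5 excluded genes was added after seeing the data. Where 1 library of a genotype remained, its spread was taken from the other genotype.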

Additional observations from a re-analysis of the deposited data

Results flagged for a closer look

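In the edgeR interaction test, 13 genes had a genotype effect in the selected cells that differed from that in the remaining cells. Each difference below is the log2 fold change of M*rbm24a* over sibling in the selected cells minus that in the remaining cells, and levels are in CPM. No cause was weighed.

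Some of them were near 0 in the selected M*rbm24a* cells. *esrp1* (−5.23) had 0.479 and near 0 in M*rbm24a* and 15.0 and 13.5 in sibling selected cells, and 23.1 and 22.6 in M*rbm24a* against 34.9 and 34.0 in sibling libraries in the remaining cells. *gmds* (−10.45), which encodes a GDP-mannose dehydratase, was near 0 in both M*rbm24a* libraries and at 14.3 and 8.77 in siblings, at least 15.9-fold higher there, and had 37.8 and 37.4 in M*rbm24a* against 70.6 and 58.5 in sibling libraries in the remaining cells. Its fitted fold is no bound, since one arm is near 0. The 15.9-fold bound takes a floor of 3 counts and does not cover error in the subtraction of ambient RNA. *lye* (−4.98) had 2.31 and near 0 in M*rbm24a*, against 56.8 and 4.93 in sibling cells, and its difference ran from −12.29 to −2.30 over its alternatives and did not pass without sibling 1. In EVL cells these 3 genes had means of 753, 1312 and 14132, and the neural cells held 0.191 and near 0 in M*rbm24a* against 3.94 and 2.82 in sibling libraries of *esrp1* and 0.441 and 0.0801 in M*rbm24a* against 15.6 and 6.29 in sibling libraries of *gmds*. *LOC110439627* (−4.11) had 5.14 and near 0 in M*rbm24a* against 371 and 123 in sibling libraries in the selected cells, and 64.0 and 41.9 in M*rbm24a* against 294 and 584 in sibling libraries in the remaining cells.

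Other genes differed at moderate levels where no cell gave more than 23.5% of the UMIs of a library. With 1 library left out, each of these calls was lost in 2 of 4 runs, those of *otx1b* and *otx1a* without M*rbm24a* 1 and without sibling 1, that of *mycn* without M*rbm24a* 1 and without sibling 2, and that of *cdkn1a* without M*rbm24a* 2 and without sibling 1. Over all alternatives the difference lay between 0.19 and 1.32 for *otx1b*, 0.29 and 0.77 for *otx1a*, 0.45 and 0.70 for *mycn* and −0.85 and −0.78 for *cdkn1a*. *otx1b* (0.90) had 58.9 and 31.7 in M*rbm24a* against 24.5 and 25.4 in sibling libraries in the selected cells, and 80.2 and 75.3 in M*rbm24a* against 94.2 and 78.9 in sibling libraries in the remaining cells. *otx1a* (0.63) had 75.6 and 65.3 in M*rbm24a* against 35.7 and 37.2 in sibling selected cells, and 111 and 107 in M*rbm24a* against 96.2 and 82.6 in sibling libraries in the remaining cells. *mycn* (0.56), a proto-oncogene of growing progenitors, had 96.5 and 86.7 in M*rbm24a* against 64.3 and 61.9 in sibling libraries in the selected cells, where the remaining cells had 101 and 109 in M*rbm24a* against 105 and 119 in sibling libraries. *cdkn1a* (−0.82), a p53 target that stops the cell cycle, had 38.7 and 34.5 in M*rbm24a* against 42.7 and 42.8 in sibling libraries in the selected cells, and 43.7 and 41.2 in M*rbm24a* against 28.9 and 29.4 in sibling libraries in the remaining cells.

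In the rest, 1 cell gave a large share of the UMIs of a library. *LOC100331996* (2.40) had 16.0 and 10.7 in M*rbm24a* against 1.63 and 5.79 in sibling selected cells, with 95.7% and 71.2% of its UMIs in M*rbm24a* 1 and 2 from 1 cell each, and did not pass without sibling 1. *si:ch211-241j12.3* (−2.72) had 3.12 and 3.94 in M*rbm24a* against 40.7 and 6.56 in sibling selected cells, with 58.0% of sibling 1 from 1 cell, and its difference was −0.64 without the germ-marked cells of sibling 1, where it did not pass. *zgc:174153* (−3.97) had 0.984 and 1.02 in M*rbm24a* against 0.508 and 39.2 in sibling selected cells, with 97.1% of sibling 2 from 1 cell. *LOC100332229* (−1.11) had 21.8 and 22.5 in M*rbm24a* against 45.7 and 13.4 in sibling selected cells, with 40.6% of sibling 1 from 1 cell, and its difference was −0.27 without the germ-marked cells, where it did not pass. *ddx4* (−0.79), a germ cell gene, had 116 and 117 in M*rbm24a* against 213 and 71.3 in sibling selected cells, with 33.9% of sibling 1 from 1 cell.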

How the results depend on the processing

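The share of selected cells was lower in M*rbm24a* embryos under every alternative run, by −0.39 to −4.20 points. The 16 genotype calls became 181 without the filter, 8 with at least 5 and 10 with at least 3 defining genes, 8 with DESeq2, 25 with limma and 9 without germ-marked cells, and ranged over 1 to 916 with 1 library left out. The 13 interaction calls became 36 without the filter, 39 without germ-marked cells (10 of them shared) and 18 to 45 with 1 library left out. *esrp1*, *gmds* and *LOC110439627* passed it under all 8 alternatives. The *ddx4* interaction lay between −1.31 and 0.12 with 1 library left out (0.12 without sibling 1) and turned to 0.030 without germ-marked cells, and that of *zgc:174153* lay between −5.07 and 0.76 (0.76 without sibling 2) and turned to 0.25 with at least 5 defining genes. Against the remaining cells, the 5 higher genes became 8 at a pseudocount of 1 and 1 at 20 (*kazald2*), and the 177 lower genes 109 at 20, 296 without the CPM minimum and 107 with EVL cells left out of the remaining cells. Other causes were not tested.

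With the replicate number as a block 78 genes passed. The deviations of same-numbered libraries from their genotype mean correlated at 0.0358 over 9005 genes. The labels do not say whether such libraries shared a batch, and this correlation alone cannot decide it.

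Genes under about 3 UMIs in a set cannot be compared at this depth.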

Other observations

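Against the remaining cells of their library, the selected cells showed no listed gene of the Wnt, FGF, Nodal, Notch, retinoic acid, adhesion, p53, S phase or mitosis lists that was 2-fold higher in each library. Lower genes numbered 4 of 15 Wnt, 3 of 9 FGF, 1 of 4 Nodal, 3 of 9 Notch, 2 of 6 retinoic acid and 7 of 22 adhesion and matrix genes. Of all 4968 genes, 177 were lower (3.56%) and 5 higher (0.101%). At that share a list of this size would seldom hold a higher gene. *fgf8a*, a ligand gene of the margin, had 0, 0.996, 1.58 and 2.29 CPM in the selected cells, against 40.8, 36.5, 49.4 and 65.3 CPM in the remaining cells, and *fzd8b*, a Wnt receptor gene, had 3.24, 5.07, 6.44 and 9.86 CPM, against 78.3, 68.0, 80.0 and 75.4 CPM. *rbm38*, a relative of *rbm24a*, had 8.11, 16.8, 13.2 and 9.04 CPM, against 122, 114, 120 and 132 CPM (−2.95), and its level in neural cells was as low, at 8.88, 8.92, 8.11 and 8.18 CPM.

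Some receptors and cofactors of these pathways leaned the other way without reaching the fold. *fgfr4* had 444, 409, 449 and 470 CPM in the selected cells, against 247, 232, 243 and 237 CPM in the remaining cells (0.87), and its level exceeded that of the neural cells in each library (293, 256, 278 and 286 CPM). *foxh1*, a Nodal cofactor, had 253, 243, 251 and 267 CPM, against 147, 141, 143 and 137 CPM (0.81). The protocadherin gene *pcdh19* had 29.5, 23.9, 24.0 and 34.4 CPM, against 9.82, 10.4, 13.4 and 14.4 CPM (0.95). Proliferation genes lay close together, with median log2 ratios of 0.09 for 18 S phase genes and 0.08 for 21 mitosis genes against 0.05 over all genes.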
